A study of Mus musculus with 8 samples.

Results

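The Dlx genes encode homeodomain transcription factors related to Distal-less of the fly. Every probe set of the array whose platform annotation named exactly 1 gene, and that gene was one of Dlx1 to Dlx6, was taken, which gave 8 of 45101 probe sets and covered all 6 genes of 18193. RNA had been measured on one-colour Affymetrix arrays, 1 per sample, from the tongue bud of C57BL/6J mouse embryos at embryonic day 13.5. The 4 control samples had the genotype Alk5 fl/fl, and the 4 mutant samples had Alk5 fl/fl together with Wnt1-Cre. All 8 therefore carried the floxed allele of Alk5, the type I TGF-beta receptor gene also called Tgfbr1, and Cre, which the labels place in the cranial neural crest, was present in the mutants only. No group carried Cre without the fl/fl genotype, so the transgene and the loss of the receptor cannot be told apart. The labels give no embryo sex and no litter, and do not say whether samples of a group came from separate embryos or from pools, so each SD and p measures the spread between these samples, which may be technical. The question of the series was how TGF-beta signalling in neural crest cells bears on the muscle precursors beside them.

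Mammalian Dlx genes stand in linked pairs, Dlx1 with Dlx2, Dlx3 with Dlx4 and Dlx5 with Dlx6, and the genes of a pair share enhancers between them and have overlapping expression. In the branchial arches their nested expression sets identity along the proximal to distal axis: Dlx1 and Dlx2 are expressed along most of the arch mesenchyme, Dlx5 and Dlx6 in its distal part, and Dlx3 and Dlx4 most distally. Dlx5 and Dlx6 lie downstream of endothelin signalling and are needed for lower jaw identity, Dlx3 is also a regulator of epidermis, hair and teeth, and Dlx5 of bone. In the forebrain Dlx1 and Dlx2 are required for GABA neurons.

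The labelled tissue was checked against its markers. The arrays read a mean log2 value of 11.02 to 11.19 in controls and 11.02 to 11.17 in mutants over 6 markers of neural crest mesenchyme, and 12.07 to 12.28 in controls over 6 markers of skeletal muscle. Of 3 markers of forebrain GABA neurons, cells that also express Dlx genes, Gad1 had group means of 4.57 and 4.43, Gad2 of 4.31 and 4.32 and Slc32a1 of 5.93 and 5.82, where the median of an array lay between 5.96 and 6.01. Tgfbr1, on its brightest probe set, read 12.00 ± 0.10 (SD, n = 4) on controls and 12.39 ± 0.03 on arrays labelled mutant (limma, adjusted p = 0.00342). The positions of its probes in the gene were not used here, and the value checks neither the deletion nor the labels.

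Dlx1 and Dlx2 were the members that changed, and the sequences around their start sites are shown because both rose. The RefSeq (GRCm38.p6) start-site windows used here covered only these 2 of the 6 genes, so no member that did not pass can be compared. They ran from 250 bases before the start to 50 after. The window of Dlx1 lay at chr2:71529195-71529494 on the plus strand and that of Dlx2 at chr2:71546705-71547004 on the minus strand. Each is written from 5′ to 3′ on the gene's strand. Capitals mark matches, on either strand, to 7 motifs. These were CAGAC and GGCGCC (letters bound by Smad proteins), TAATTA (a homeodomain core), TATAAA (the TATA box), CCAAT (the CCAAT box), GGGCGG (the GC box) and CACGTG (an E-box).
Dlx1: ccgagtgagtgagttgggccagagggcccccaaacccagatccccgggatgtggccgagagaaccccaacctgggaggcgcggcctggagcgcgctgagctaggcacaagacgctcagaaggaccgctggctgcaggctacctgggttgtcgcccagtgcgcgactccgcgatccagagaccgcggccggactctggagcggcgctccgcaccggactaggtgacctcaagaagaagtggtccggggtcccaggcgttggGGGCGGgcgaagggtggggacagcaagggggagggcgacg
Dlx2: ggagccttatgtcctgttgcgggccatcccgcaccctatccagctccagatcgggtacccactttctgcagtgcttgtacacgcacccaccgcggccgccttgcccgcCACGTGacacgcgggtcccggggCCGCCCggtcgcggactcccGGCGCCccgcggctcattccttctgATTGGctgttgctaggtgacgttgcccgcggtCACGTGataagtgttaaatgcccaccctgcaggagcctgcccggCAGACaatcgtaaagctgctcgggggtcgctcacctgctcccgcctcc
The Dlx1 window held 1 match, GGGCGG, which 35.7% of 32851 windows of that length hold. The Dlx2 window held CAGAC once, at base 253 of the window, GGCGCC once, at base 152, and CACGTG at bases 109 and 209, motifs held by 49.6%, 11.9% and 7.15% of all windows. It also held CCAAT and GGGCGG once each on the opposite strand (37.4% of windows hold the former). No matches overlapped, and TAATTA and TATAAA (5.29% and 13.6% of windows) were in neither. Both windows were rich in CG dinucleotides, 27 in Dlx1 and 29 in Dlx2 against a median of 7, with 15.5% and 12.9% of windows holding as many or more. These matches describe letters and not binding.

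Dlx1 and Dlx2, the pair expressed along most of the arch, both rose in the mutant tongue buds. On controls 1 to 4 the log2 value of Dlx1 (1449470_at) was 7.63, 7.62, 7.58 and 7.64, and on mutants 1 to 4 it was 8.72, 8.51, 8.40 and 8.51. The highest control lay well under the lowest mutant, and the control values stood within a narrow band (7.61 ± 0.03 against 8.54 ± 0.13, SD, n = 4 each). This is a log2 change of 0.92 (SE 0.068), or 1.89-fold with a 95% interval of 1.70 to 2.11, at an adjusted p of 0.000101 in limma. Dlx2 (1448877_at) read 6.97, 6.77, 6.87 and 6.88 on the controls and 8.06, 7.98, 7.77 and 8.11 on the mutants. Again no mutant fell among the controls, whose mean was 6.87 ± 0.08 against 7.98 ± 0.15 (SD, n = 4 each). The log2 change was 1.10 (SE 0.080), or 2.15-fold (95% interval 1.90 to 2.44, adjusted p = 9.45e-05). Mutant 3 was the lowest mutant for both genes.

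These were 2 of the 6 genes, both higher and 0 lower, where 4.20% of all 18193 genes were called higher in mutants, 5.52% lower and 9.72% in either direction. The groups did not overlap for the same 2 of 6 genes, against 17.8% of all genes. By size of log2 change Dlx2 stood 37th and Dlx1 53rd among the 764 genes called higher. With each array left out in turn the log2 change ran from 0.86 to 0.97 for Dlx1 and from 1.06 to 1.17 for Dlx2, with adjusted p values of at most 0.000776 and 0.000725. In bulk tissue a change in the number of cells that express a gene and in RNA per cell cannot be told apart. On the same arrays 1 of the 6 mesenchyme markers rose (Prrx1, 0.76) and 2 fell (Col1a1, −0.65, and Col1a2, −0.42), although their mean overlapped between groups as given above. The mean of the 6 muscle markers was 12.07 to 12.28 in controls and 11.26 to 11.64 in mutants, and all 6 muscle markers fell. The endothelial marker mean was 7.50 to 7.60 in controls and 7.73 to 8.04 in mutants, with 2 of 5 markers higher. The 7 epithelial markers had means of 10.24 to 10.48 and 9.85 to 10.38, with 1 lower. The 3 Schwann cell markers measured had means of 8.58 to 8.83 in controls and 8.17 to 8.41 in mutants, with 2 lower, and of 5 macrophage and leukocyte markers 2 fell, among them Csf1r (−0.60). The part of these shifts in the values of Dlx1 and Dlx2 was not tested.

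**Figure D1:**
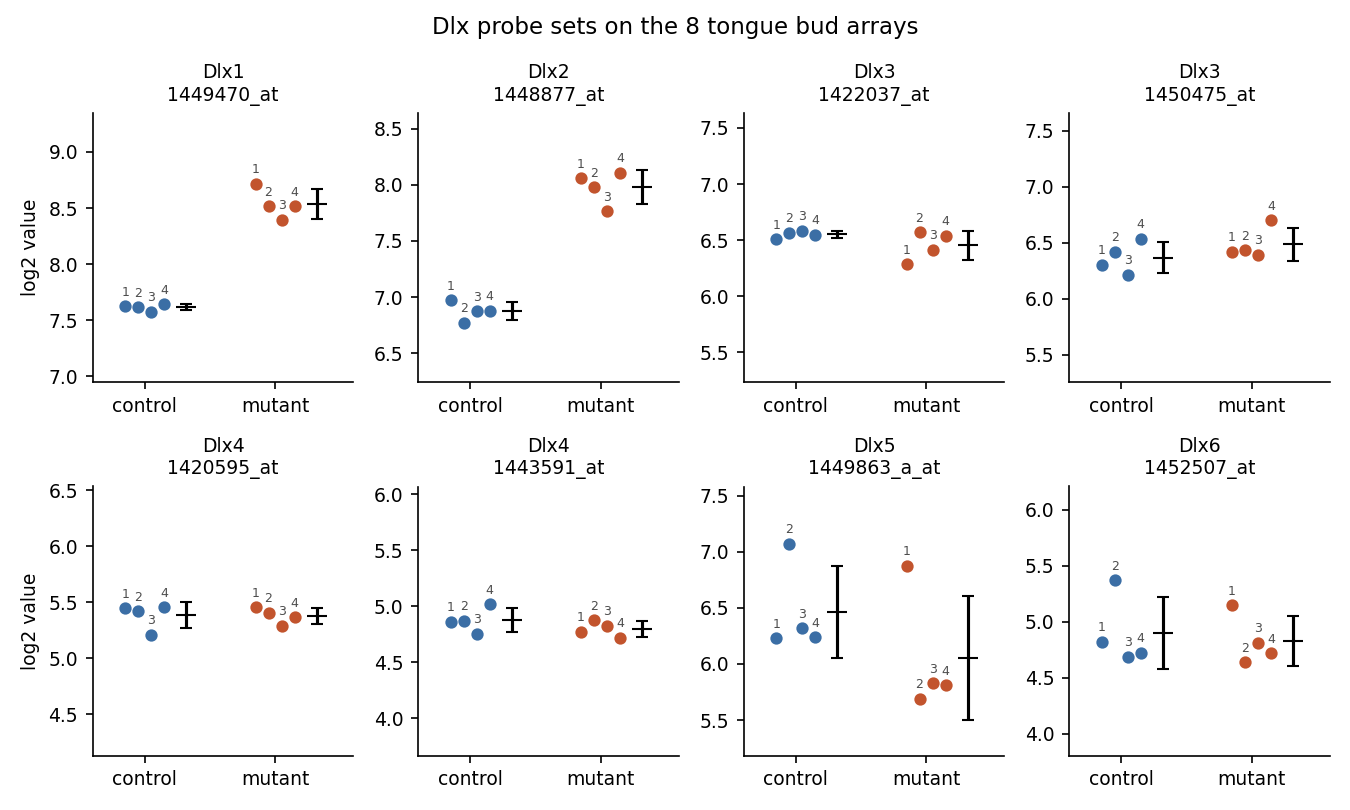
Log2 value (vertical axis, each panel spanning the same height) of the 8 Dlx probe sets on 4 control (blue) and 4 mutant (orange) arrays, numbered by replicate, with the mean and SD in black. The mutants of Dlx1 and Dlx2 lie above all controls, the groups of the other sets overlap, and control 2 and mutant 1 stand above the rest of their groups for Dlx5 and Dlx6.

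Dlx3 and Dlx4, the most distal pair of the arch, did not pass on any of their 4 probe sets. For Dlx3 the brighter set (1422037_at) read 6.51 to 6.58 on controls and 6.28 to 6.57 on mutants, a log2 change of −0.10 with a 95% interval of −0.25 to 0.05 (adjusted p = 0.422). The other Dlx3 set (1450475_at) had the opposite sign, at 0.12 (interval −0.09 to 0.32, adjusted p = 0.543 over all probe sets naming 1 gene). The 2 sets thus differ in direction, and both intervals hold 0. For Dlx4 the brighter set (1420595_at) read 5.21 to 5.45 on controls and 5.29 to 5.45 on mutants, with a change of 0.00 (interval −0.16 to 0.15, adjusted p = 0.983). The dimmer set (1443591_at) gave −0.08 (interval −0.23 to 0.07). Both Dlx4 sets lay below the array medians, where a change in RNA moves the signal less, and the file holds no detection calls. The upper bounds of these 4 intervals lay below the lower bounds of Dlx1 and Dlx2 (0.77 and 0.92).

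Dlx5 and Dlx6, the pair downstream of endothelin signalling, did not pass, and in both the groups overlapped. The log2 value of Dlx5 (1449863_a_at) was 6.23, 7.07, 6.32 and 6.24 on the 4 controls in order, and on the mutants in order it was 6.87, 5.69, 5.83 and 5.81. Control 2 and mutant 1 were the high samples, and mutants 2 to 4 lay below all controls. The log2 change was −0.41 (SE 0.28, 95% interval −1.04 to 0.21, adjusted p = 0.414), so a fall by more than the rise of Dlx1 and a small rise are both within the interval. Without control 2 the change was −0.21 and without mutant 1 it was −0.69 (adjusted p = 0.0661), and it passed in none of the 16 alternatives. The spread of Dlx5 within groups was larger than that of 99.3% of genes.

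Dlx6 (1452507_at), dim on all arrays, read 4.82, 5.37, 4.69 and 4.72 on the controls and 5.15, 4.64, 4.81 and 4.72 on the mutants. The same control 2 and mutant 1 were the highest of their groups. Its log2 change was −0.07 (95% interval −0.43 to 0.29, adjusted p = 0.837), and the sign turned to 0.09 without control 2.

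**Figure D2:**
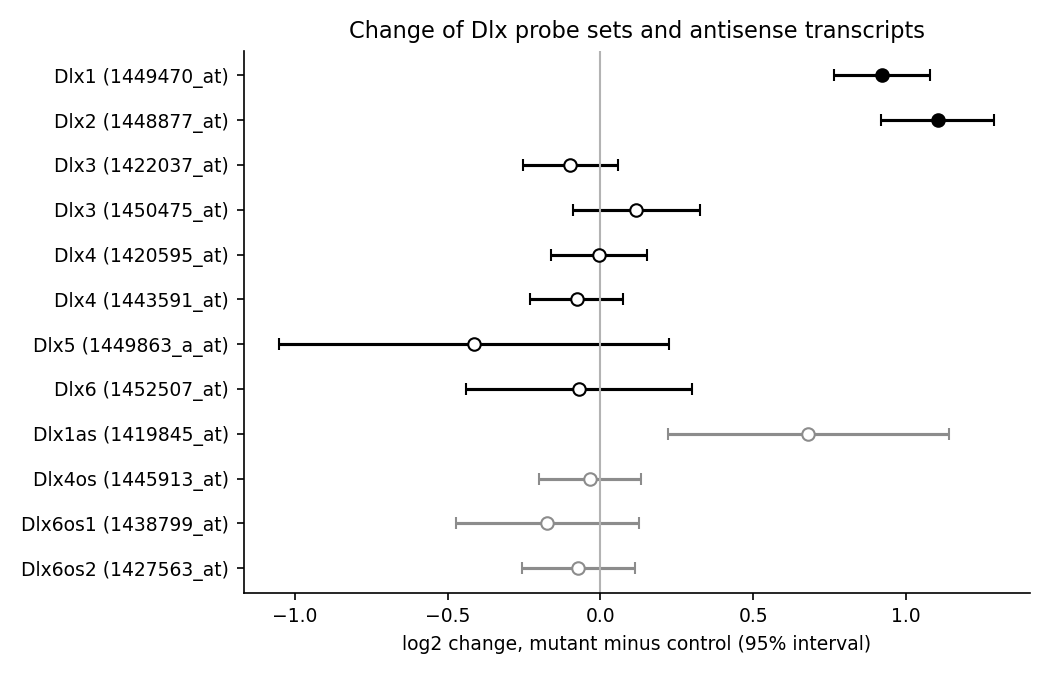
Log2 change from control to mutant (horizontal axis, points) with its 95% interval (bars) from the fit over all probe sets, for the 8 Dlx probe sets (black) and 4 antisense or opposite-strand transcripts (grey); filled points passed an adjusted p of 0.05. Dlx1 and Dlx2 passed, and Dlx5 had the widest interval, −1.05 to 0.23 in that fit.

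Antisense and opposite-strand transcripts of the Dlx loci were measured by 4 further probe sets. Dlx1as, transcribed antisense to Dlx1, read 4.92, 5.30, 4.60 and 4.76 on controls and 5.92, 5.66, 5.02 and 5.70 on mutants. Mutant 3, lowest of the mutants here as for Dlx1 and Dlx2, lay below control 2. The log2 change was 0.68 (95% interval 0.23 to 1.13), which did not pass over all genes (adjusted p = 0.0644 in limma). It passed without control 2 (0.82, adjusted p = 0.0416) or mutant 3 (0.86, adjusted p = 0.0144). These were the highest control and the lowest mutant, so leaving out either one draws the groups apart. With any other array left out it did not pass, at adjusted p values up to 0.15. Where its probes lie relative to the exons of Dlx1 is not given in the sources used here. Dlx6os1, the long noncoding RNA also called Evf2 that acts with Dlx proteins at the Dlx5 and Dlx6 locus in forebrain, gave −0.17 (interval −0.47 to 0.12), with control 2 (4.38) and mutant 1 (4.38) again the highest of their groups. Dlx6os2 gave −0.07 and Dlx4os −0.03, and neither passed. All 4 transcripts were dimmer than the array medians.

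Whether the genes of a linked pair moved alike was tested on the difference between their log2 values within each array. Dlx1 minus Dlx2 was 0.65, 0.84, 0.70 and 0.76 on the controls and 0.66, 0.54, 0.63 and 0.40 on the mutants. Mutant 1 overlapped the controls, and the change of Dlx1 was smaller than that of Dlx2 by 0.18 on the log2 scale (difference −0.18, exact two-sided permutation p = 0.0571, 0.171 after Benjamini-Hochberg over the 3 pairs). Dlx3 minus Dlx4 differed by −0.09 between groups (exact permutation p = 0.543). Dlx5 minus Dlx6 was 1.41 to 1.70 on the controls, 1.02 to 1.09 on mutants 2 to 4 and 1.73 on mutant 1, a difference of −0.34 (exact permutation p = 0.143, adjusted 0.214). No pair passed. The smallest p that 4 against 4 arrays allow is 0.0286, and after adjustment over 3 pairs 1 pair alone could not pass even at that value: at least 2 would have to reach it together. Without mutant 1 the Dlx1 and Dlx2 difference was −0.22 and that of Dlx5 and Dlx6 was −0.51. Each then had an exact permutation p of 0.0286 and 0.0429 after adjustment. Mutants 2 to 4 lay below all controls in both pairs, so leaving out mutant 1 put p at its smallest possible value, and no call is drawn from that fit. No other array left out gave a call, with exact permutation p values up to 0.143 for Dlx1 and Dlx2 and 0.286 for Dlx5 and Dlx6. Dlx6 was dim, where a change in RNA moves the signal less, so its difference from Dlx5 need not be one of RNA.

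**Figure D3:**
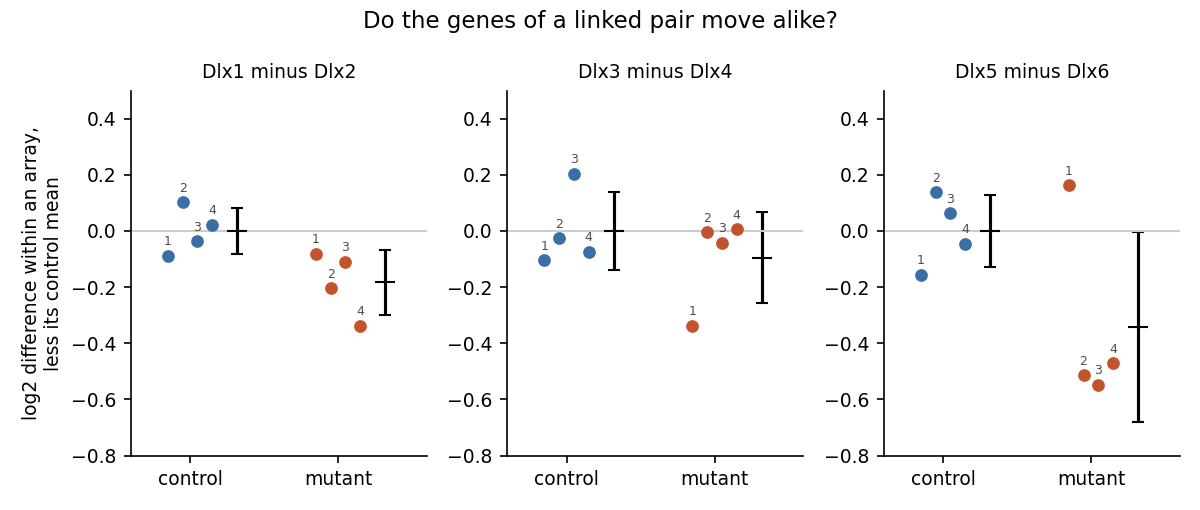
Difference in log2 value between the genes of each linked pair within an array, less the control mean of that difference (vertical axis, log2), for 4 control (blue) and 4 mutant (orange) arrays numbered by replicate, with mean and SD in black. Mutants 2 to 4 lie below the controls for Dlx5 minus Dlx6 and mutant 1 above them, and in each of the 3 pairs the groups overlap.

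The profile of each risen gene over the 8 arrays, centred on its own mean, was set against those of all other genes by the root-mean-square difference on the log2 scale. Dlx2 was the 10th nearest of 18192 genes to Dlx1 (0.13), and Dlx1 the 2nd nearest to Dlx2. Both had already been called with like differences between groups, so these ranks are no separate support for a shared change. Outside the family the nearest to Dlx1 were Col13a1, a transmembrane collagen (0.090; log2 change 0.87), Dpep1, a membrane dipeptidase (0.10; 0.85), and Tcim (0.11; 0.77). Nearest to Dlx2 were Kcne4, a regulatory subunit of potassium channels (0.11; 0.99), Zbtb46, a zinc-finger factor (0.13; 1.22), and Nr2f1, the nuclear receptor COUP-TF1 (0.13; 1.00). With the mean of all its probe sets Zbtb46 changed by 0.38. All 6 passed, but a like difference between groups enters this measure, so their passing followed largely from how they were picked. Dlx4 lay at a like difference from Dlx3 (0.14). It stood only 7958th in nearness, both genes having nearly flat profiles, as have many others.

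The genes next to each pair, in the order of the GRCm38.p6 gene table, were read to see how far the change extended. Beside Dlx1 and Dlx2 on chromosome 2, Metap1d, a methionine aminopeptidase, gave 0.09 (adjusted p = 0.492) and the noncoding Gm17250 gave 0.05 (adjusted p = 0.749). The next genes out, the histone acetyltransferase gene Hat1 (0.18, adjusted p = 0.0495) and the integrin gene Itga6 (−0.25, adjusted p = 0.028), passed with opposite signs. Hat1 lost its call in 12 of the 16 alternatives and Itga6 in 9, each of them in 7 of the 8 fits with an array left out (0.16 to 0.21 and −0.29 to −0.22 over all 8). The changes of these 4 neighbours were thus at most 0.25 in size, where Dlx1 and Dlx2 had 0.92 and 1.10. Around Dlx3 and Dlx4 on chromosome 11 the integrin gene Itga3, Pdk2, Gm11515 and Tac4 ran from −0.19 to −0.04 and none passed. Around Dlx5 and Dlx6 on chromosome 6 Sem1 (0.01) and Sdhaf3 (0.02) did not pass. Farther out Slc25a13, the mitochondrial carrier citrin, rose by 0.47 (adjusted p = 0.00649; 0.45 with an adjusted p of 0.0549 without controls 1 and 3), and Tac1, the gene of the neuropeptide substance P, fell by 1.54 on the log2 scale (adjusted p = 0.00264), or by 0.76 with the mean of all its probe sets. Among the 5 neuron markers 3 fell and 2 rose on these arrays.

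**Figure D4:**
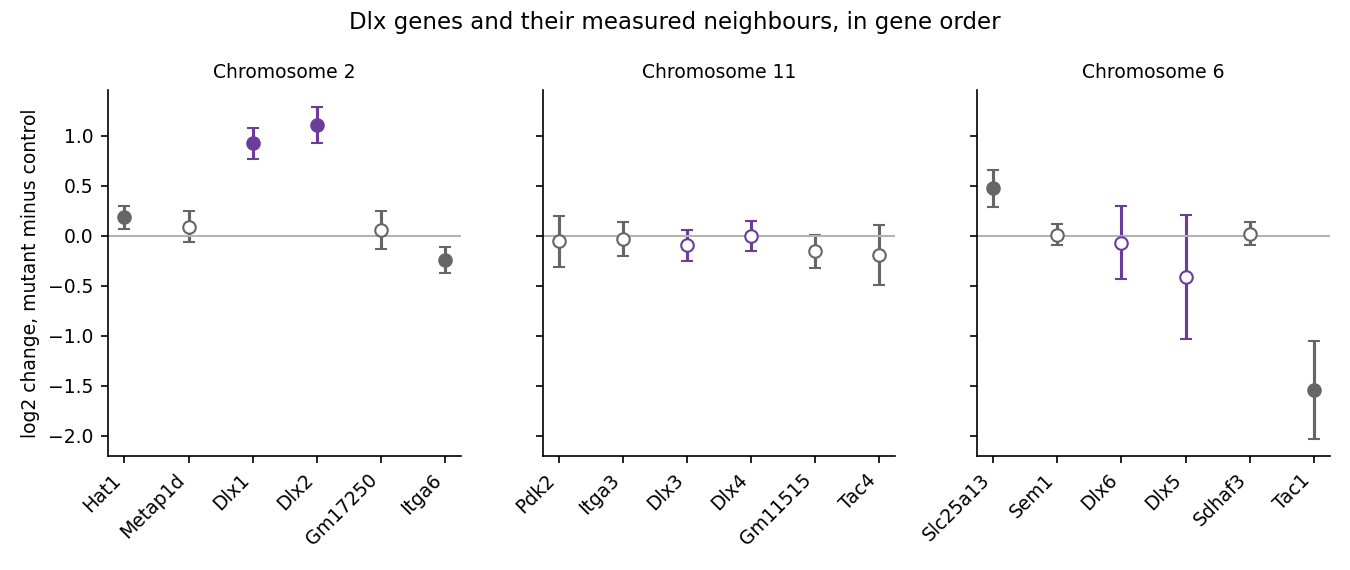
Log2 change from control to mutant (vertical axis, points with 95% intervals) of each Dlx pair (purple) and of 2 measured genes on either side (grey), ordered as on the chromosome and not to distance; filled points passed an adjusted p of 0.05. Dlx1 and Dlx2 stand above their neighbours, while Dlx5 and Dlx6 lie between Slc25a13 at 0.47 and Tac1 at −1.54 on its brightest set.

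Of 8 measured genes that act before the Dlx family in the mandibular arch, 1 fell and 0 rose (median log2 change 0.03, against −0.01 over all genes), where 5.52% of all genes were lower and 4.20% higher. With dim sets left out 1 gene of the list was called higher. The one that fell was Mef2c, a transcription factor of arch mesenchyme and of muscle that lies between endothelin and Dlx5 and Dlx6, at −0.57 (SE 0.087, adjusted p = 0.0035). With the mean of all its probe sets it gave −0.48 and did not pass (adjusted p = 0.0891). The muscle markers fell on the same arrays, and their part in the Mef2c value was not tested. The endothelin ligand gene Edn1 gave 0.04 and its converting enzyme gene Ece1 0.14 (adjusted p = 0.0911).

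Among 9 measured genes known to need Dlx5 and Dlx6 in the arch, 1 rose and 0 fell (median 0.03), where 4.20% of all genes were higher and 5.52% lower. Cited1, a transcriptional coactivator, rose by 0.48 (SE 0.11, adjusted p = 0.0247). That call was lost without control 1 (0.46), control 2 (0.40), mutant 1 (0.45), mutant 3 (0.44), mutant 4 (0.47) or controls 1 and 3 together (0.55), so that no gene of the list rose in those fits. Hand2, the factor of the distal arch and tongue mesenchyme, was bright at 11.88 ± 0.24 and 11.91 ± 0.18 (SD, n = 4 each) and gave 0.03 (adjusted p = 0.929), and Hand1 gave −0.09. Rgs5, a regulator of G protein signalling found in pericytes, had the largest difference of the list at −0.79 and did not pass (adjusted p = 0.0859). Without mutant 1 the list had 0 genes higher and 1 lower, and without probe sets whose names end in _x_at or _s_at it had 2 higher.

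Of 4 genes of the upper arch that Dlx5 and Dlx6 keep low, 2 fell and 0 rose (median −0.65), where 5.52% of all genes were lower and 4.20% higher. Pou3f3, a POU factor of the maxillary arch, had a mean of 8.51 ± 0.34 in controls and 7.58 ± 0.36 in mutants (SD, n = 4 each). Its log2 change was −0.93 (SE 0.20, adjusted p = 0.0194). With the mean of all its probe sets it gave −0.51 and passed. It did not pass without control 4 (−0.91), mutant 2 (−0.88) or controls 1 and 3 (−0.77). Cyp26a1, the enzyme that breaks down retinoic acid, went from 8.57 ± 0.25 to 7.63 ± 0.36, by a log2 change of −0.94 (SE 0.18, adjusted p = 0.0109), and passed in all 16 alternatives. On mutants 1 to 4 it read 7.18, 7.59, 7.69 and 8.07, where the epithelial marker mean was 9.85, 10.04, 10.18 and 10.38. On controls 1 to 4 it read 8.80, 8.47, 8.28 and 8.75, where that mean was 10.37, 10.42, 10.24 and 10.48. The part of epithelium in the Cyp26a1 value was not tested. Irx5 gave −0.37 (adjusted p = 0.065) and Foxl2 0.02, neither passing.

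None of 8 measured genes regulated with Dlx1 and Dlx2 in the forebrain passed (median 0.01), where 9.72% of all genes passed in either direction. Those with the smallest p were Gad1 (−0.15, adjusted p = 0.397) and Zeb2 (−0.22, adjusted p = 0.411). At an unadjusted p under 0.05 the count in limma was also 0. Likewise 0 of 4 partner and cofactor genes passed, with the binding protein gene Grip1 at 0.22 (adjusted p = 0.229) and Msx1, a homeobox gene whose protein can oppose Dlx proteins, at −0.23 (adjusted p = 0.478). Of the bone targets 0 of 3 measured passed, Sp7 giving 0.03 and Ibsp 0.05. In both of these lists 0 genes had an unadjusted p under 0.05. The share of all genes under that p is not given here. Lists this short can hold no called gene at the share over all genes, so counts of 0 do not set them apart. Gad1, Gad2 and Slc32a1 also lay below the array medians, where a change in RNA moves the signal less.

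Among 19 other measured homeobox genes of the first arch 5 rose and 1 fell (median 0.03), against 4.20% higher and 5.52% lower over all genes. Those that rose were Shox2 at 0.98, the mesenchyme factor Prrx1 at 0.76, Barx1 of the proximal arch and stomach mesenchyme at 0.67, the goosecoid gene Gsc at 0.64 and the TALE factor Meis2 at 0.40, and Pou3f3 fell. Barx1 and Gsc passed in all 16 alternatives. Meis2 did not pass without mutant 2 (0.39), and Prrx1 did not without controls 1 and 3 (0.67). Shox2 lost its call without control 1 (0.83), control 3 (1.00), control 4 (0.89), mutant 1 (0.94), mutant 2 (0.92), mutant 4 (0.94) or controls 1 and 3 (0.78). The counts were 3 higher and 0 lower without mutant 2 or without controls 1 and 3, and 2 lower without control 4. Each of the 5 changed by less than Dlx2, and Shox2 alone by more than Dlx1.

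**Figure D5:**
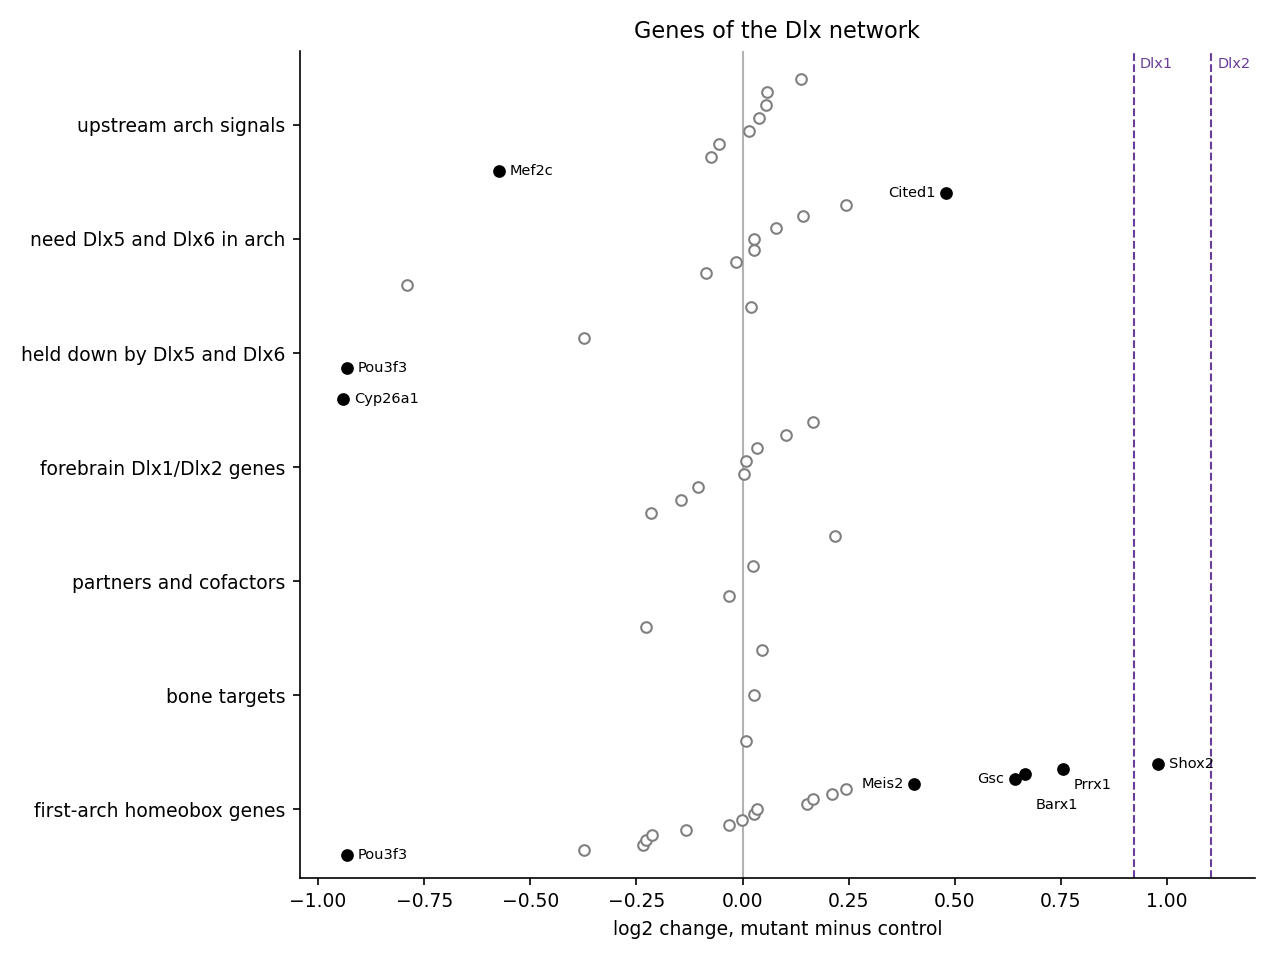
Log2 change from control to mutant (horizontal axis) of each measured gene in 7 lists of the Dlx network (rows, genes spread vertically for legibility); filled and named points passed an adjusted p of 0.05, open points did not, and dashed lines mark Dlx1 at 0.92 and Dlx2 at 1.10. Most genes lie near 0, Cyp26a1, Pou3f3, Mef2c and an open point for Rgs5 (−0.79) to the left, and Shox2 and Prrx1 farthest to the right.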

How the data were processed

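Values were log2 expression per probe set as deposited by the authors, 1 array per sample, made with RMA per the submitters' processing notes. Its version and settings: not given in the sources used here. RMA makes the distributions of the arrays alike, so shifts common to many genes can be lost before any test. No 2 arrays held identical values, and 0 values were missing. Gene names came from the platform annotation, matched to RefSeq gene identifiers (GRCm38.p6): 34945 of 45101 named 1 gene, 932 named several, 9160 were unnamed and 64 were controls. A gene was read on the set with the highest mean over the 8 arrays, without a filter on dim sets.

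The test between groups was limma's (version 3.58.1, R 4.3.3; lmFit, eBayes, two-sided, Benjamini-Hochberg over 18193 genes, or over the 34945 sets for values of single sets), and genes with an adjusted p under 0.05 passed. SE is the moderated standard error. The procedure was checked on simulated data. Pair differences were tested by exact permutation over the arrays. Genes named outside the family were list members that passed, or the 2 of smallest p in a list without any, the 2 nearest measured genes on each side of a pair, the 3 nearest profiles of each called member, and a few list members given as not passing, which were chosen after their values were seen. The members, lists and motifs were chosen with earlier results of these data known. The lists held 10 upstream genes, 10 genes needing Dlx5 and Dlx6, 4 of the upper arch, 9 of the forebrain, 4 partners, 6 bone targets and 24 homeobox genes, and list members beyond the measured numbers given with each result are not reported here. Alternatives were the replicate number as a block, 2 normalizations, a filter on dim sets, 2 rules for the set of a gene, another variance model, each array left out, and controls 1 and 3 left out.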

Additional observations from a re-analysis of the deposited data

Results flagged for a closer look

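An array far from the other 3 of its group was sought in 44 groups of 4 values and found in 6, where chance alone gives about 1 in 20. The search did not take in every gene named here. Msx1, with control 2 at 7.71 against 6.82 to 6.90, was outside it, so the count is not a share over all named genes. For Dlx5 it was control 2 at 7.07, the other controls lying at 6.23 to 6.32, and mutant 1 at 6.87, the other mutants lying at 5.69 to 5.83. For Dlx6os1 it was mutant 1 at 4.38, against 3.85 to 3.93. The second Dlx3 set, 1450475_at, had mutant 4 at 6.70 against 6.39 to 6.43. The brighter Dlx4 set had control 3 at 5.21 against 5.42 to 5.45. Shox2 had mutant 3 at 7.60 against 8.12 to 8.20.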

How the results depend on the processing

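The calls of Dlx1 and Dlx2 held in all 16 alternatives (log2 change 0.86 to 0.97 and 1.06 to 1.17, adjusted p up to 0.0031 and 0.0021), and no call was made for Dlx3 (−0.14 to 0.01), Dlx5 (−0.69 to −0.21) or, in the 15 alternatives that kept them, Dlx4 (−0.06 to 0.03) and Dlx6 (−0.22 to 0.09). With dim sets left out Dlx4, Dlx6 and the antisense transcripts gave no value. Dlx1 and Dlx2 each rest on 1 probe set, with no other set to compare. The filter on dim sets and the 2 rules for the set of a gene therefore could not alter their log2 changes. The genes higher in mutants numbered 329 and those lower 637 with the replicate number as a block, and 481 were higher without controls 1 and 3. With 1 array left out 428 to 623 were higher and 687 to 960 lower, against 764 and 1004 with all arrays. Some calls were thus lost without a smaller change, as for Shox2 without control 3 (1.00, against 0.98 with all arrays). The pair differences with 1 array left out ran from −0.22 to −0.13 for Dlx1 minus Dlx2 and from −0.51 to −0.27 for Dlx5 minus Dlx6. Same-numbered arrays did not deviate together (correlations of −0.40, 0.02, −0.18 and −0.16 over genes, 0 of 8 arrays nearest to its own number). No pairing by number was thus seen, although a weak one could be missed. The labels do not say what the numbers stand for. With the block Dlx1 gave an adjusted p of 0.00228 and Dlx2 of 0.0021, Dlx1as passed (0.0356), and Pou3f3 (0.0593), Prrx1 (0.0542) and Meis2 (0.0564) did not. Flipping signs within numbers allows no p under 0.125 and 2 controls against 4 mutants none under 0.0667, so those settings cannot call a pair difference. The sets of Dlx4, Dlx6 and the antisense transcripts lay below the array medians, which limits what they can show, and background was not measured here.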

Other observations

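The profile of Dlx5 was examined after its values were seen. The nearest of all other genes was Actn3, the alpha-actinin of fast muscle fibres, with a root-mean-square difference of 0.14, followed by Slc38a6 (0.24) and Vwa5a (0.25). For Actn3 the 4 controls in order had 7.79, 8.79, 8.20 and 8.05, and the mutants 8.52, 7.43, 7.30 and 7.34, so that control 2 and mutant 1 were again the highest of their groups. Dlx6 stood 12th in nearness to Dlx5 (0.28), while Dlx5 stood 11573rd in nearness to Dlx6, whose profile is flatter. Msx1 read 7.71 on control 2, against 6.82 to 6.90 on the other controls, and 6.79 to 6.93 on the mutants.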
